A study of Rattus norvegicus with 8 samples.

Results

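Timp1 encodes tissue inhibitor of metalloproteinases 1, a small secreted glycoprotein that blocks the enzymes which cut the extracellular matrix. It is described here in lower spinal cord from rats of the outbred Sprague Dawley strain, as 1 gene of the 32883 identifiers in the count table. The gene was taken as the row ENSRNOG00000010208. It was chosen because its counts differed between injured and uninjured cords, so its level and fold change are given as a description and carry no test.

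The injured group holds 4 libraries of lower lumbar cord, taken 4 days after a hemisection, a cut through one side of the cord, at thoracic level 9. The uninjured group holds 4 libraries of cord from rats without such an injury. Neither group carries a genetic change or a drug according to the labels. The labels do not state a sham operation for the uninjured rats, the side of the cord taken, or the animals' age and sex. Nor do they say that each library came from its own animal, so the spread between libraries may in part be technical. The tissue lies below the cut and was not itself cut, and it was read as a whole, with neurons, glia, vessels and any blood cells together. In such bulk tissue, more cells that make a transcript and more transcript per cell cannot be told apart.

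As background, TIMP proteins insert the start of their chain into the catalytic zinc site of active matrix metalloproteinases and hold them in a tight, reversible complex. Timp1 inhibits most secreted matrix metalloproteinases and also the membrane proteinase ADAM10, binds the inactive precursor of Mmp9 through the other end of its chain, and can signal to cells through the surface protein CD63 without inhibiting a proteinase. In the healthy central nervous system its transcript is scarce. It is known as an acutely inducible member of its family, responsive to interleukin 1, tumour necrosis factor and cytokines of the interleukin 6 family, and reactive astrocytes are a well described source of it after injury. Its enzyme targets act on the basement membrane of vessels and on the matrix around neurons.

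The sequence around the start of the transcript is shown because the inducible elements by which the gene is known lie there. In the RefSeq table of promoters (build GRCr8, a later build than the Rnor_6.0 named by the submitters), Timp1 starts on the minus strand, and the window chrX:3771073-3771372 covers 250 bases before the start and 50 after it. Capitals mark the matches to 3 short motifs, searched on both strands: TGAGTAA, a variant of the AP-1 element bound by Fos and Jun proteins; CAGGAAG, a form of the ETS element; and GGGCGG, the GC box bound by SP and KLF factors, here present as its reverse complement.
Timp1: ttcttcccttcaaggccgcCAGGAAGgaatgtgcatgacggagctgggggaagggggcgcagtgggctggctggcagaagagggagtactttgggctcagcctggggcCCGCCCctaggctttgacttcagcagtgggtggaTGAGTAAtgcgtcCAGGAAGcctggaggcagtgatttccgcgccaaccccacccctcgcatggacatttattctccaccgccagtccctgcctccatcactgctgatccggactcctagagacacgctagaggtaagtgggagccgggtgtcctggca

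The AP-1 variant stood 108 bases before the start, and 1 of the 2 ETS matches followed it closely, at 95 bases before the start. The other ETS match lay 231 bases before the start and the GC box 142 bases before it. Of the 33469 promoter windows of the same length in the table, 2.90% held the AP-1 variant on either strand, 12.5% held CAGGAAG and 33.1% held GGGCGG. Both the AP-1 variant and CAGGAAG were present in 111 windows (0.332%). The consensus AP-1 letters TGANTCA, held by 7.33% of windows, and the STAT letters TTCNNNGAA, held by 8.87%, did not occur in the Timp1 window. The window was 61.3% G and C, against a median of 51.7% over all windows. The motifs were picked from what is known of the gene, and a match describes letters and shows no binding. No data on binding or chromatin were used here, and the counts say nothing of which element was in use.

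Timp1 lies inside the Syn1 gene, which encodes the synaptic vesicle protein synapsin I and runs on the opposite strand. CEL-Seq2, the method used, reads the 3′ end of polyadenylated transcripts and counts each captured molecule once by a random identifier. No source used here names the strand setting of the gene counting, so that molecules from Timp1 and those from the overlapping part of Syn1 cannot be told apart from the table alone. Syn1 itself could not be located in the table.

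Timp1 was present in all 8 libraries. Uninjured cords gave 20, 31, 12 and 23 Timp1 molecules in replicates 1 to 4, a total of 86. Injured cords gave 221, 330, 52 and 187, a total of 790. Every injured library held more Timp1 molecules than every uninjured one even before scaling, although injured replicate 3, the lowest of its group, came from the second smallest library. Totals ranged from 119808 molecules (uninjured replicate 3) to 405537 (uninjured replicate 4), and injured totals ranged from 153060 (replicate 3) to 378725 (replicate 2). In whole-library terms, 1 molecule in 18733, 7685, 9984 and 17632 was Timp1 in uninjured replicates 1 to 4, and 1 in 1624, 1148, 2943 and 1376 in the injured ones.

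On a scale that corrects for library size (CPM, Timp1 molecules scaled to a common total of molecules in tested genes, with TMM factors), Timp1 stood at 51.4, 137, 139 and 55.2 CPM in uninjured replicates 1 to 4. The level was 611, 882, 405 and 789 CPM in injured replicates 1 to 4. The means were 95.6 ± 48.8 CPM without injury and 672 ± 210 CPM after it (SD, n = 4 each). The groups did not overlap: the lowest injured library, replicate 3, stood at 2.91 times the highest uninjured value, that of replicate 3 on this scale. A gap of this kind, with all injured above all uninjured libraries, was found for 128 of 4159 tested genes (3.08%). The reverse, with all injured below all uninjured libraries, was found for 74. Timp1 had the fourth highest of the 128 upward gaps. Since the gene was chosen on this contrast, nothing is read from its place.

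**Figure D1:**
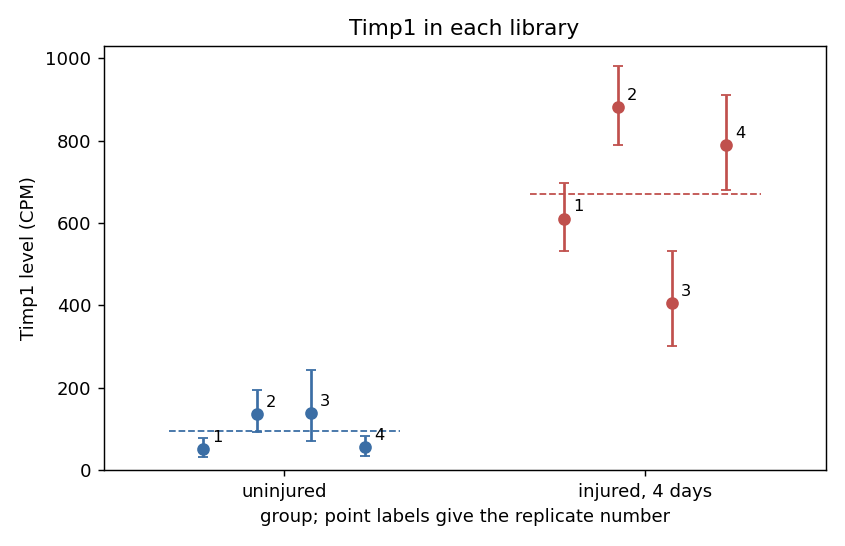
Timp1 level in CPM (vertical axis, from 0) in each of the 4 uninjured and 4 injured libraries, labelled by replicate number; bars are exact 95% Poisson intervals for counting error and dashed lines are group means. The injured libraries sit between 405 and 882 CPM, all above the uninjured range of 51.4 to 139 CPM.

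The fit gave Timp1 a log2 fold change of 2.97 (standard error 0.35), a 7.83-fold difference between injured and uninjured cords. The median log2 fold change of all tested genes was -0.01. By fitted fold Timp1 was in rank 4 of 4159 tested genes. The 3 genes above it had fitted folds from 8.48 to 10.3 and were all scarcer, with at most 60.5 molecules per library on average against 109.5 for Timp1, and the next gene below it had a fold of 6.90. In the same fit, 41 genes (0.986%) were called higher and 0 (0%) lower by edgeR's quasi-likelihood test at a Benjamini-Hochberg adjusted p under 0.05. Without adjustment, 222 of the 4159 genes were higher and 104 lower at p under 0.05 in edgeR. A share of 0.05 of unchanged genes would be expected to pass that threshold, over both directions together, so nothing is read from these counts. At the adjusted threshold DESeq2 called 2 lower and limma-voom 1. With the replicate number as a block, edgeR called 94 genes higher and 16 lower, and the Timp1 log2 fold change was 3.08 (standard error 0.27).

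**Figure D2:**
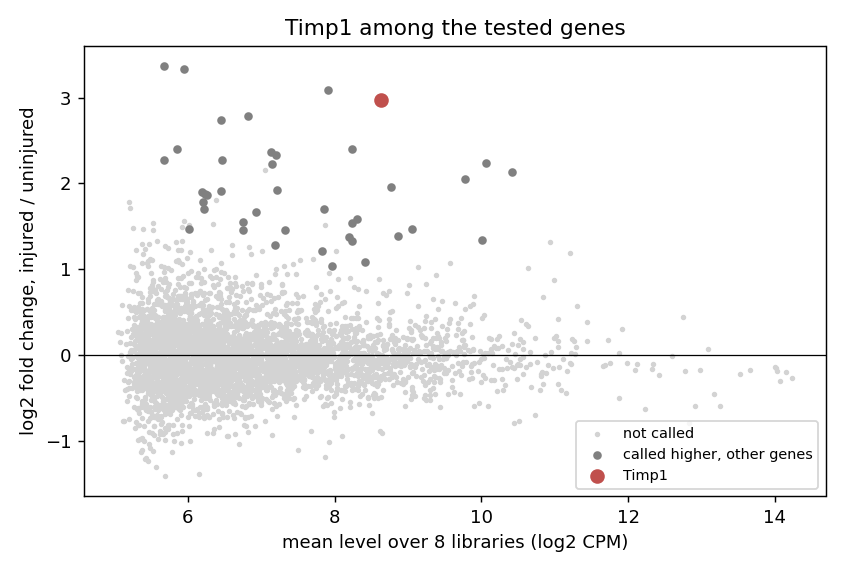
Log2 fold change between injured and uninjured cords (vertical axis) against mean level over the 8 libraries in log2 CPM (horizontal axis) for the 4159 tested genes, 1 point per gene, with the genes called higher in dark grey and Timp1 in red. Timp1, at a log2 fold change of 2.97, lies to the right of the 3 points above it.

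Timp1 moved from the middle of the tested genes to near the top. By mean CPM it was in rank 1900 of 4159 tested genes without injury, above 54.3% of them, and in rank 232 after injury. Ranked by molecules among all genes detected in a library, it was in rank 3011, 1360, 1347 and 2878 in uninjured replicates 1 to 4. Its rank in injured replicates 1 to 4 was 256, 155, 440 and 197. A rank by molecules compares 3′ end counts, which do not grow with transcript length. The mean gain of 576 CPM was the fifteenth largest of the tested genes, and 4 of the genes called higher gained more.

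Among the 41 genes called higher, Timp1 itself included, Timp1 took a larger share after injury. It made up 1.84% ± 0.516 of the molecules of these genes in uninjured cords and 3.93% ± 0.815 in injured cords (SD, n = 4 each). Its rank by molecules among the 41 lay between 13 and 21 in the uninjured libraries and between 6 and 9 in the injured ones. Both restate that the fold of Timp1 was among the largest of these genes, which were called on the same libraries.

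The titles number the libraries of each group 1 to 4, and the ratio of injured to uninjured was also taken within each number. Timp1 was higher after injury in all 4. For number 1 the ratio was 11.9, with an exact 95% interval for counting error of 7.51 to 19.8. For number 2 it was 6.46 (4.46 to 9.66), for number 3 it was 2.91 (1.54 to 5.998) and for number 4 it was 14.3 (9.24 to 23.1). The interval of number 3 lay below those of numbers 1 and 4 without touching them and overlapped that of number 2. Both libraries numbered 3 were the shallowest of their groups.

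The difference between numbers came from both sides of the ratio. Number 3 combined a high uninjured level, 139 CPM, with the lowest injured level, 405 CPM. Uninjured replicates 2 and 3 were not distinguishable at this depth (intervals of 92.8 to 194 and 71.8 to 243 CPM), and as a share of all molecules replicate 2 was the higher, at 0.0130% against 0.0100%. Numbers 1 and 4 had the 2 lowest uninjured levels, 51.4 and 55.2 CPM, while number 2 paired 137 CPM without injury with the highest injured level, 882 CPM. Counted as a gain, the differences were 559, 745, 266 and 733 CPM for numbers 1 to 4.

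The other 40 genes called higher, taken as the sum of their CPM, had ratios of 4.54, 3.30, 1.81 and 4.95 for numbers 1 to 4. Timp1 and this sum thus put the numbers in one order, with number 4 first and number 3 last. The Timp1 ratio was 2.62, 1.96, 1.61 and 2.88 times that of the sum. All of these genes were chosen on the same 8 libraries, and these ratios share them.

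**Figure D3:**
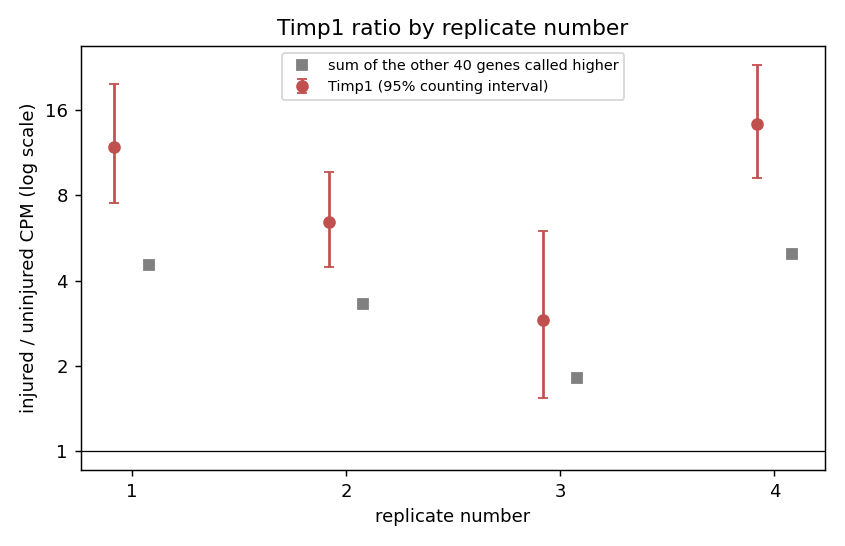
Ratio of injured to uninjured CPM (vertical axis, log scale) for each replicate number (horizontal axis), for Timp1 with exact 95% intervals for counting error (red) and for the summed CPM of the other 40 genes called higher (grey squares). Timp1 ratios run from 2.91 for number 3 to 14.3 for number 4, and the grey squares from 1.81 to 4.95 in the same order.

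Timp1 also varied within each group. In uninjured cords the highest level was 2.71 times the lowest, a coefficient of variation of 51.1%. In injured cords the highest was 2.18 times the lowest, a coefficient of variation of 31.3%. The exact 95% Poisson intervals of uninjured replicate 1 (31.4 to 79.4 CPM) and replicate 2 (92.8 to 194 CPM) did not overlap. That of injured replicate 3 (303 to 531 CPM) lay just below that of replicate 1 (533 to 697 CPM), the nearest of its group.

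On the log2 CPM scale the pooled standard deviation of Timp1 within groups was 0.60, against a median of 0.41 over the tested genes, and 83.8% of these genes varied less. In uninjured cords the 2 deepest libraries, replicates 1 and 4, had the lower Timp1 levels and the 2 shallower ones the higher levels. In injured cords the shallowest library, replicate 3, had the lowest level, but the next shallowest, replicate 4, had the second highest. The part of depth in the spread was not tested.

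The genes whose pattern was most like that of Timp1 were sought by Pearson's r of log2 CPM over the 8 libraries, among 2449 other tested genes with a mean of at least 20 molecules. The 10 most alike had r between 0.966 and 0.976. Of all 2449, the median r was -0.02 and the 95th percentile 0.739. This likeness includes the injury contrast itself, so that 9 of the 10 being among the 41 called genes follows from the measure. Their fitted folds ran from 1.85 to 8.48. Since r does not depend on the size of a difference, genes that differ much less than Timp1 can rank among the most alike.

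The closest was ENSRNOG00000010645 (r = 0.976), with 84, 96, 61 and 88 molecules in uninjured replicates 1 to 4 and 605, 640, 191 and 493 in the injured ones. Its level was 389 ± 234 CPM without injury and 1737 ± 248 CPM after it (SD, n = 4 each), a 4.72-fold difference in the fit. Next was ENSRNOG00000011821 (r = 0.975), with 83, 101, 49 and 73 molecules in uninjured and 436, 684, 159 and 300 in injured replicates 1 to 4. It stood at 350 ± 188 CPM and 1384 ± 297 CPM (SD, n = 4 each), a 4.16-fold difference. Both were more abundant than Timp1 in either group and differed less between groups. Like Timp1, both were higher in uninjured replicates 2 and 3 than in replicates 1 and 4. Without the libraries numbered 3, r over the other 6 libraries was 0.995 and 0.991. Both genes were picked by their r over these same libraries, so a shared pattern is in part built in and nothing is read from it.

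**Figure D4:**
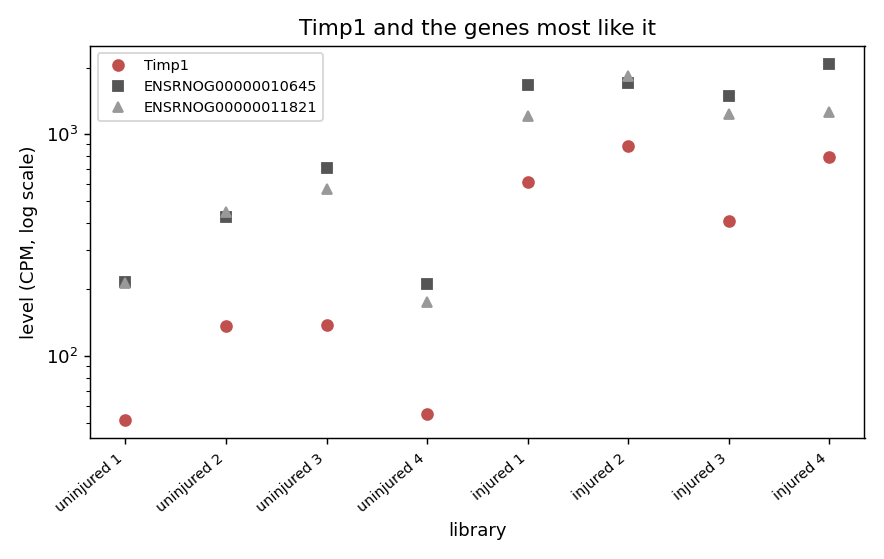
Level in CPM (vertical axis, log scale) of Timp1 and of the 2 genes most like it in each of the 8 libraries (horizontal axis), 1 point per gene and library. All 3 genes are higher in every injured library than in every uninjured one, and in uninjured cords all 3 are higher in replicates 2 and 3 than in replicates 1 and 4. The 2 genes were picked by their likeness to Timp1 over these same libraries, so the shared pattern is in part built in.

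A second measure left the contrast between groups out and correlated only the deviations from the group means. The median r with Timp1 was 0.00 over the 2449 genes, and 49.9% had an r above 0. Of the 40 other called genes, 30 had enough molecules for this measure. Their median r was 0.63, with a range from -0.23 to 0.91, and 27 of the 30 were above 0. Libraries in which Timp1 was high for their group thus tended to be high in these genes as well. Without both libraries numbered 3, 23 of the 30 were above 0 with a median r of 0.58, where 50.9% of all 2449 genes were above 0. These values describe 8 libraries that share depth and replicate number, and genes are not independent replicates.

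The 5 genes with the highest r of deviations (0.913 to 0.987) included 1 gene called as changed. One of the 5 also belonged to the 10 most alike over all libraries. Of the 2449 genes ranked, 30 were called, so nothing is read from this count.

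The fold of Timp1 kept its direction in all 21 other ways of fitting the data. With every injured library above every uninjured one, no choice of libraries could have reversed it. The fold ranged from 6.60-fold, without uninjured replicate 1, to 9.87-fold, without both libraries numbered 3. Within numbers 1 and 2 alone it was 8.55-fold, and within numbers 3 and 4 alone 7.33-fold. The log2 fold change was 2.98 with library totals in place of TMM factors and 2.95 with totals that left out the 25 most abundant genes, so that scaling moved it by little. The length of the molecule identifiers is not stated; since identifiers of 6 bases would allow only 4096 different molecules of a gene, counts were also corrected for repeats at that length. The correction added at most 4.26% to a Timp1 count (injured replicate 2), and the fitted fold became 8.002.

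**Figure D5:**
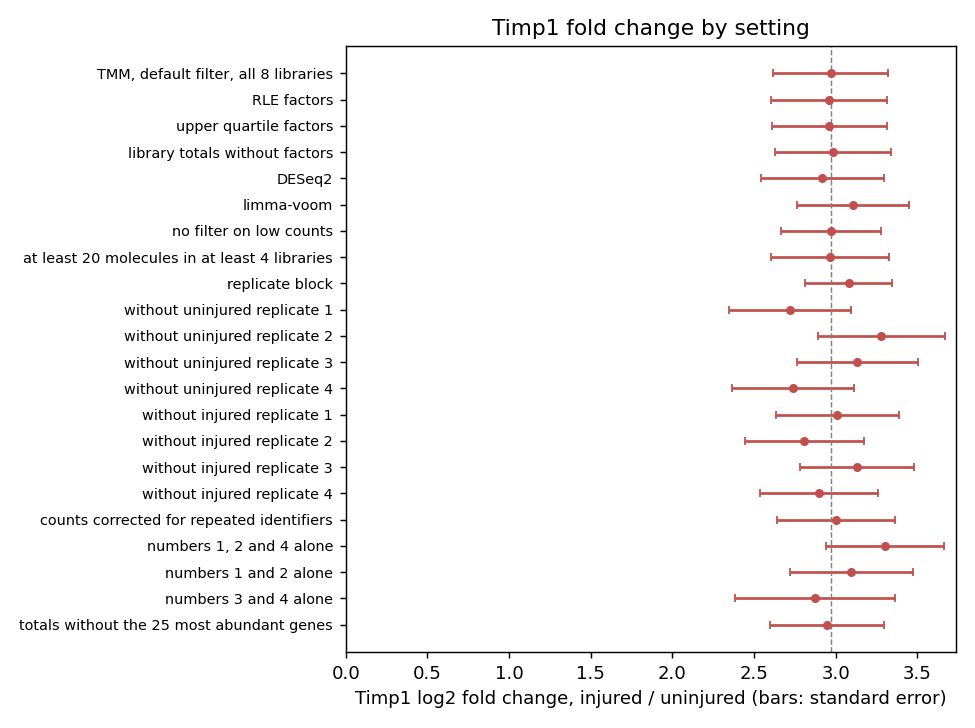
Timp1 log2 fold change between injured and uninjured cords (horizontal axis, from 0) with its standard error (bars) under each way of fitting the data (vertical axis), the reported one on top; the dashed line marks the reported 2.97. All values lie between 2.72 and 3.30.

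The table gives no gene symbols, and no identifier could be paired with one through the reference used here. The remaining TIMP genes, the metalloproteinases and ADAM proteinases they inhibit, the matrix substrates, the cytokine pathways that induce Timp1, and the markers of astrocytes, microglia, vessels, neurons and invading blood cells were listed for this comparison but not analysed here. The labelled tissue was for the same reason not checked against its marker genes, and whether the number of any cell type moved with Timp1 was not tested.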

How the data were processed

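CEL-Seq2 libraries of rat lower spinal cord, 4 injured and 4 uninjured, were analysed from the deposited table of counts, whole numbers of molecules per gene without normalization. HISAT2 2.0.4, HTSeq 0.6.0 and build Rnor_6.0 are named per the submitters' processing notes. No source used here says how identifiers were collapsed or which strand setting was used. The Ensembl field of the RefSeq table is empty, so that it gives a symbol to 0 of the 32883 identifiers; the assignment of ENSRNOG00000010208 to Timp1 was supplied with the task and could not be checked there. The planned gene lists and cell type markers were therefore not tested. Timp1, the lists and the rules were chosen with earlier results of these data known.

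Genes passing edgeR's filterByExpr (minimum count 10, minimum total 15) numbered 4159. They were fitted together (edgeR 4.0.16, R 4.3.3, TMM, robust quasi-likelihood F test, two-sided, Benjamini-Hochberg over all 4159, threshold 0.05). Alternatives were DESeq2 1.42.0, limma-voom (limma version 3.58.1), other scalings, other filters and leaving out libraries. The edgeR procedure was also run on counts simulated from each gene's mean CPM and fitted dispersion. Known changes were given to some genes, and no effect of replicate number was included. No result given here rests on that run. CPM are relative to the tested molecules times the TMM factor; 3 molecules equal 7.20 to 34.8 CPM. For correlations, log2 CPM had a prior count of 3. Intervals cover counting error only (exact, 95%). The standard error of an edgeR log2 fold change was taken as its absolute value divided by the square root of the F statistic. Genes to be named were Timp1, members of the lists, the 10 most like it over all libraries and the 5 most like it in deviations; without symbols at most 2 other identifiers are given.

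Same-numbered libraries deviated from their group means together, with correlations across genes of 0.39, 0.36, 0.17 and 0.45 for numbers 1 to 4. Libraries of different numbers gave -0.39 to 0.24, so that number 3 was not set apart from the highest of these. The labels do not state what a number means, and the reported fit did not treat same-numbered libraries as pairs. The ratios by number and the fit with the replicate block do so and are given beside it.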

Additional observations from a re-analysis of the deposited data

How the results depend on the processing

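In all 21 alternatives the Timp1 log2 fold change stayed within 1 pooled standard deviation between libraries (0.60) of the reported value. That margin is wider than the standard error of the reported value (0.35), so staying within it is a weak check. The log2 fold change ranged from 2.72 to 3.30, and leaving out 1 library at a time gave 2.72 to 3.28. With the replicate block (paired by number) it was 3.08. Its rank by fold lay between 2 and 9, except for rank 110 of 12968 genes with no filter on low counts, where genes with very few molecules are fitted too. The number of genes called moved more. With no filter on low counts, 94 genes were higher and 4 lower. With the replicate block, 94 were higher and 16 lower. DESeq2 called 2 genes lower, and limma-voom 1. In numbers 1 and 2 alone 82 were higher and 4 lower, and in numbers 3 and 4 alone 3 were higher. Without both libraries numbered 3, 1 was lower, as with totals that left out the 25 most abundant genes. Leaving out 1 library gave 22 to 74 genes higher and 0 to 3 lower; the count of higher genes was 22 without uninjured replicate 1, 23 without uninjured replicate 4 and 74 without uninjured replicate 3. The cause was not tested. Of the 10 genes most like Timp1, 10 were shared with a prior count of 1 and 7 with Spearman's rho. The totals without abundant genes and the likeness without the libraries numbered 3 were chosen after seeing the data. In uninjured cords Timp1 rested on 12 to 31 molecules per library, which limits the precision of every ratio.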
